A study of Mus musculus with 18 samples.

Results

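The transcription factors of the formative and epiblast stage described here are Otx2, Pou3f1, Foxd3, Zic2, Zic5, Sall2 and Etv1. They were taken by symbol from the deposited gene table and make up 7 of its 24369 genes. RNA was sequenced from mouse embryonic stem cells (mESCs) of the line E14 that carry a Rex1GFPd2 reporter and Cas9 at Rosa26, and 18 libraries fall into 2 experiments. The first followed wild-type cells before differentiation (day 0) and on days 1, 2 and 3, with 3 libraries per day. The second compared sorted GFP+ cells of 3 genotypes, with 2 libraries each: wild-type (Rex1GFPd2-Cas9), Nprl2 KO (Rex1GFPd2-Cas9 Nprl2-/-) and Tsc2 KO (Rex1GFPd2-Cas9 Tsc2-/-). Nprl2 is a subunit of Gator1 and Tsc2 a subunit of the Tsc complex, and both complexes restrain the growth kinase mTORC1.

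Every library, the controls included, carries the reporter and Cas9. The reporter is driven from the Rex1 (Zfp42) locus, which is active in naive mESCs, so the GFP+ gate keeps cells with naive reporter activity in all 3 genotypes and the members were read there outside the differentiation medium. The KO lines were made by deleting a critical exon on both alleles with paired guide RNAs and picking clones, and whether the 2 libraries of a genotype come from separate clones or cultures is not given in the sources used here, so p-values measure the spread between these libraries, which may be technical. Lines were kept on feeder cells in serum and LIF, and differentiation was induced by a medium without LIF. The medium of the day 0 cells and the library kit of the time course are likewise not given, so levels in the 2 experiments are set side by side without a test. These are bulk RNA measurements, in which fewer expressing cells and less RNA per cell cannot be told apart.

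When naive mESCs leave the ground state they pass through a formative stage that resembles the epiblast of the embryo just after implantation. Otx2, a homeodomain factor, and Pou3f1 (Oct6), a POU-domain factor, are among the best known regulators of that step, and Foxd3 is a forkhead factor needed for the epiblast. Zic2 and Zic5 are zinc finger factors of the early neural ectoderm, Sall2 belongs to the spalt family of zinc finger proteins, and Etv1 is an ETS factor of the group that acts downstream of FGF-ERK signaling. Otx2, Pou3f1 and Zic2 are also among the markers that the study displayed for these GFP+ samples, so their direction there is not independent evidence.

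The totals of estimated counts ranged from 12503005 to 15305054 in the time course and from 8610357 to 13780861 in the GFP+ libraries. The targeted genes checked the labels: Nprl2 was lower in Nprl2 KO cells (log2 fold change -0.96, SE 0.18, edgeR adjusted p = 0.00888) and Tsc2 was lower in Tsc2 KO cells (log2 fold change -1.23, SE 0.08, edgeR adjusted p = 9.74e-07). The 4 mESC identity markers summed to 3260 to 3440 CPM (counts scaled to the size of the library) on day 0 and 854 to 1060 on day 3, and to 2220 to 3200 across the GFP+ libraries. Fibroblast markers of feeder cells summed to 18.8 to 53.2 CPM in the time course but to 80.6 to 378 CPM in the GFP+ libraries. Within the time course the list did not move as a whole. Mean Thy1 went from 3.91 CPM on day 0 to 25.4 CPM on day 3, while mean Col1a1 went from 10.8 to 2.84 CPM.

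Most of the 7 factors rose within the first day of differentiation. Between day 0 and day 1, 6 of the 7 were higher and none was lower at an adjusted p under 0.05 (edgeR quasi-likelihood test over 14382 genes), while 60.9% of all tested genes were called in either direction, 30.1% as higher and 30.8% as lower. The median log2 fold change of the 7 was 1.06, against 0.00 over all tested genes. Foxd3 was the member that did not pass (log2 fold change 0.55, SE 0.25, adjusted p = 0.0924), and it passed without day 2 library 2 (0.0349), without day 3 library 1 (0.0374), or when days 0 and 1 were fitted alone (1.69e-04).

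From day 1 to day 2 the members parted. Zic2 and Zic5 rose further, whereas Otx2, Foxd3 and Etv1 fell, so 5 of 7 were called in edgeR where 62.1% of all genes were (32.5% higher, 29.6% lower). Pou3f1 and Sall2 had no detectable change at that step. Only Pou3f1 was called between day 2 and day 3, when it fell, at a step in which 31.5% of all genes were called (15.9% higher, 15.6% lower), and Zic2 joined it when day 0 library 2 was left out (adjusted p = 0.0364, edgeR).

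By day 3 the members stood in 3 arrangements relative to day 0. Otx2, Pou3f1, Sall2, Zic2 and Zic5 were higher, Foxd3 was lower, and Etv1 did not pass (log2 fold change -0.35, SE 0.17, edgeR adjusted p = 0.0943), where 70.9% of all genes were called (35% higher, 35.9% lower). The same 5 factors were higher and Foxd3 was lower on day 2 against day 0, a comparison with 66.6% of all genes called (34.2% higher, 32.4% lower). Etv1 passed as lower on day 3 without day 0 library 2 (0.0137) and without day 3 library 3 (0.0147). Against the day 1 level, only Zic2 and Zic5 of the 7 were still higher on day 3, while Otx2, Pou3f1, Foxd3 and Etv1 were lower, where 71.2% of all genes were called (36.3% higher, 35% lower).

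**Figure D1:**
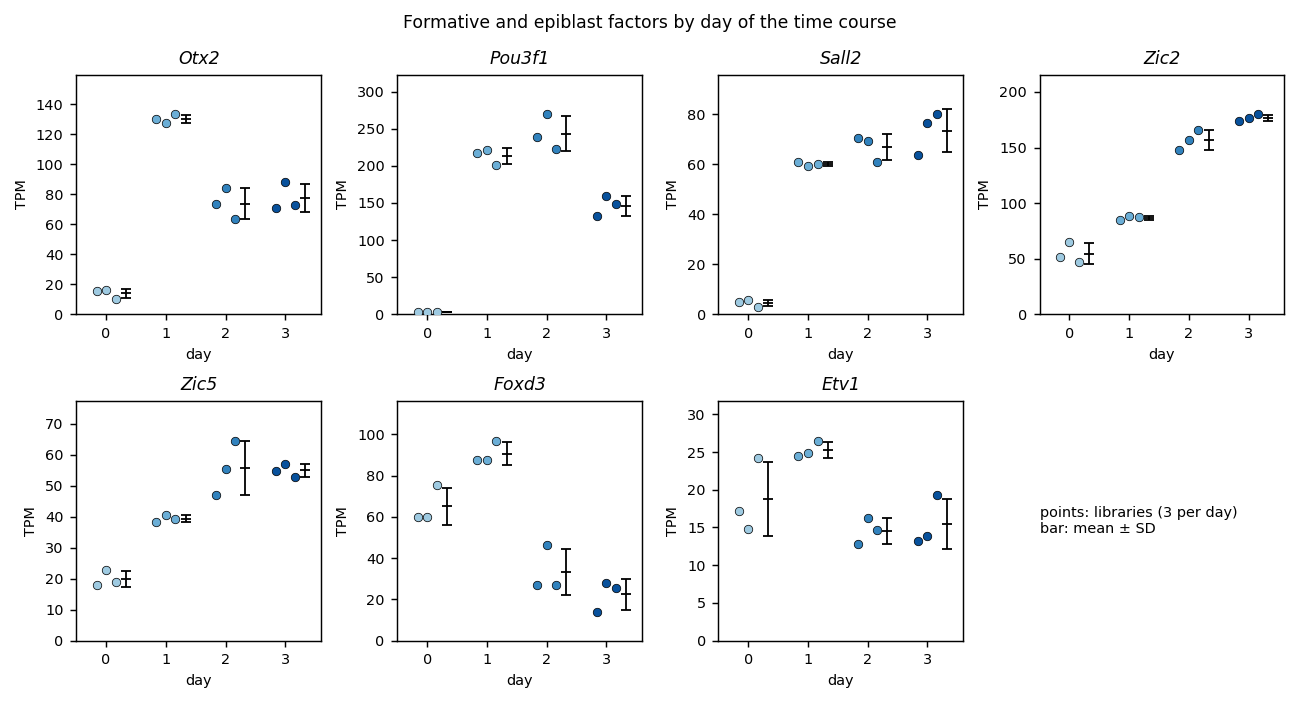
Transcript abundance in TPM, a level scaled for transcript length and library depth (y axis, each panel with its own scale from 0) of the 7 factors against the day of differentiation (x axis), with 1 point per library, 3 libraries per day, and bars for the mean ± SD. Otx2, Pou3f1 and Sall2 go from at most 16.03 TPM on day 0 to at least 59.3 TPM on day 1, Zic2 and Zic5 climb in steps, and Foxd3 and Etv1 are highest on day 1.

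**Figure D2:**
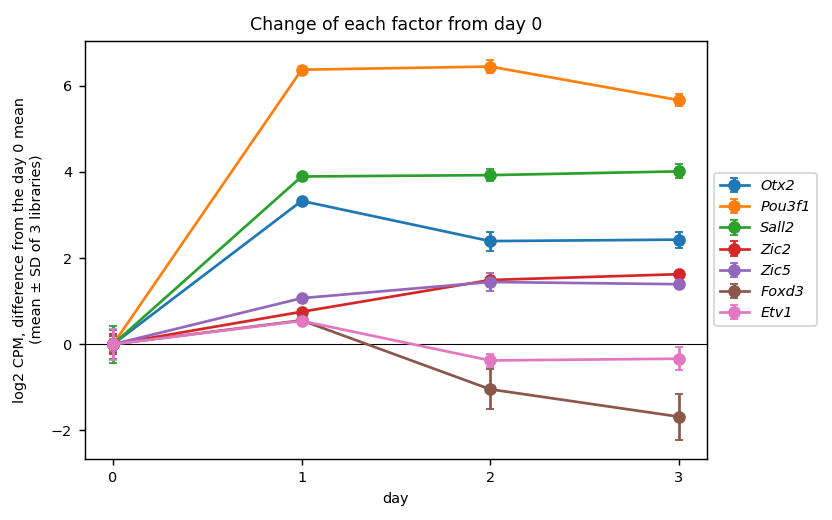
Difference in mean log2 CPM from day 0 (y axis) against the day (x axis), as the mean ± SD of 3 libraries for each factor. Pou3f1, Sall2 and Otx2 lie above the Zic genes on every day after day 0, and Foxd3 and Etv1 lie below 0 from day 2 on.

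Otx2 lies on chromosome 14, from 48657677 to 48667515 on the minus strand (GENCODE models on GRCm38), and 4 RefSeq transcripts with 3 start regions were quantified. Up to 250 bases before each of those start regions are shown because reads of the 2 experiments were assigned unequally to their transcripts. They were read from RefSeq promoter windows on GRCm38.p6, minus strand, 5′ to 3′, with CpG dinucleotides in capitals. Where the GENCODE model of a transcript begins upstream of the RefSeq start site, the bases inside the model were left out, which were 7 at the distal and 138 at the proximal site. The distal site serves NM_001286481 and NM_001286482 (chr14:48667516-48667758), the middle site serves NM_001286483 (chr14:48665110-48665359), and the proximal site serves NM_144841 (chr14:48662873-48662984).
Otx2 distal: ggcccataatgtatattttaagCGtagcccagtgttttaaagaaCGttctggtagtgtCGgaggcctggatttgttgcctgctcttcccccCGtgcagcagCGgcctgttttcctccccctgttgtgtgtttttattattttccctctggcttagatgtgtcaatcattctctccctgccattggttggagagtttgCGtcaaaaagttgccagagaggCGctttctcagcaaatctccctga
Otx2 middle: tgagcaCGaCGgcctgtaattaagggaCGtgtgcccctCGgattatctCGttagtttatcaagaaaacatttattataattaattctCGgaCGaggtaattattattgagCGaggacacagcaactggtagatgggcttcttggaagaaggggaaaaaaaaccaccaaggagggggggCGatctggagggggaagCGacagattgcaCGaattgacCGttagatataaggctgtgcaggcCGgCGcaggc
Otx2 proximal: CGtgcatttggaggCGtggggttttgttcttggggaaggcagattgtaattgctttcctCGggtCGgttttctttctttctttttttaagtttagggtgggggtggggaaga

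By the GENCODE 5′ ends, the middle site is 2409 bases downstream of the distal one and the proximal site lies a further 2234 bases on. The stretches of 243, 250 and 112 bases hold 7, 14 and 4 CpG dinucleotides from distal to proximal. The letters TAATCC, the core recognised by OTX-type homeodomains, were searched on both strands of the full windows, which run from 250 bases before to 50 after a RefSeq start site. They were found in the middle Otx2 window and in no other of the 10 windows of the members, where 7.06% of all mouse windows hold them. The POU octamer ATGCAAAT was in none of the 10 (1.74% of all windows), and the TCF/LEF core CTTTGA was in 1 window of Etv1 only (16.003% of all windows). A match of this kind describes the letters and is not evidence of binding.

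Otx2 stood at 15.2, 16.03 and 10.4 TPM in the 3 day 0 libraries and at 130.04, 127 and 133 TPM on day 1. The values were 73.8, 83.9 and 63.5 TPM on day 2 and 70.8, 88.3 and 73.1 TPM on day 3. All day 1 libraries were therefore above all others, day 0 was below all others, and days 2 and 3 overlapped. The rise to day 1 was 3.29 on the log2 scale (9.81-fold, SE 0.15, adjusted p = 1.09e-09, edgeR), and the later fall to day 2 was -0.92 (SE 0.13, adjusted p = 4.96e-05). Between days 2 and 3 the difference was 0.03 (SE 0.13, adjusted p = 0.887), and it turned to -0.07 without day 2 library 3 or without day 3 library 2.

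In GFP+ cells Otx2 measured 70.2 and 52.7 TPM in wild-type cells, 89.9 and 72.7 TPM in the Nprl2 KO and 32.1 and 25.3 TPM in the Tsc2 KO libraries. Both Tsc2 KO values lay below both wild-type values, which in turn lay below both Nprl2 KO values. The Tsc2 KO difference from wild-type was -1.13 on the log2 scale (2.19-fold lower, SE 0.18, edgeR adjusted p = 0.00328) and passed without any 1 library. The Nprl2 KO difference of 0.44 did not pass (SE 0.17, edgeR adjusted p = 0.195).

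The share of Otx2 TPM assigned to each transcript differed between the 2 experiments. NM_001286483, from the middle site, held 59.1% to 69.9% of Otx2 on day 1 and 45.3% to 59.1% on day 3. In the GFP+ libraries it held 7.08% to 24.1%, and NM_144841, from the proximal site, held 64.5% to 81.4% there. NM_144841 made up 22.9% to 32.8% on day 1 and ranged from 0% to 43.1% among the 3 day 0 libraries, where few reads support the split. The 3 GFP+ genotypes overlapped in the NM_144841 share, with 68.6% ± 5.76 (SD, n = 2) for wild-type, 74.8% ± 9.35 for Nprl2 KO and 68.3% ± 4.55 for Tsc2 KO. These shares come from the authors' assignment of reads among overlapping transcripts and carry no test, and the kind of cell cannot be told apart from the library preparation between the 2 experiments. The median gap between a transcript's length and the effective length used in quantification also differed. It was 179 bases in every time-course library and 169.58 to 227.87 bases in the GFP+ libraries. Its part in the shares was not tested. The distal transcript NM_001286482 was listed at 0 on days 0 and 1 and at 2.15 to 7.32 TPM in all 3 day 3 libraries. It was also at 5.53 TPM in day 2 library 3 and at 1.16 TPM in Nprl2 KO library 1, and at 0 in all other day 2 and GFP+ libraries.

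Pou3f1, a gene of 1 quantified transcript on chromosome 4 (124656807 to 124660655, plus strand), had the largest fold range of the 7. It was low on day 0, at 2.81, 2.89 and 2.43 TPM, and reached 217, 222 and 201 TPM on day 1. On day 2 it stood at 239, 269 and 222 TPM, and on day 3 at 132, 159 and 148 TPM. Day 0 was below all other libraries, days 1 and 2 overlapped, and day 3 lay between day 0 and the rest. The rise within 1 day was 6.36 on the log2 scale (82.3-fold, SE 0.12, edgeR adjusted p = 1.3e-17). The step from day 2 to day 3 was -0.78 (SE 0.08, edgeR adjusted p = 2.2e-06).

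Among GFP+ cells Pou3f1 was also the member with the widest spread. It measured 28.3 and 14.9 TPM in wild-type cells, 54.3 and 35.0 TPM in the Nprl2 KO and 2.58 and 2.15 TPM in the Tsc2 KO libraries. The 3 genotypes did not overlap, and the Tsc2 KO mean of 2.37 TPM ± 0.31 (SD, n = 2) stood beside 2.71 ± 0.25 (SD, n = 3) on day 0 of the time course. Relative to wild-type, Pou3f1 was 9.45-fold lower in Tsc2 KO cells (log2 fold change -3.24, SE 0.53, edgeR adjusted p = 0.0179). The adjusted p was 0.0663 without Tsc2 KO library 1 and 0.0865 without library 2, at log2 fold changes of -3.39 and -3.09. In Nprl2 KO cells the difference was 1.07 and did not pass (2.09-fold higher, SE 0.39, edgeR adjusted p = 0.235).

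Sall2 lies on chromosome 14 (52311172 to 52328762, minus strand) and was quantified as 2 transcripts whose GENCODE 5′ ends are 12439 bases apart. Their upstream sequences are shown because they differ in base composition and because the distal transcript was at or near 0 in the 2 groups with the lowest Sall2. NM_015772 starts at the distal site (chr14:52328763-52328920) and NM_001244916 at the proximal site (chr14:52316324-52316573), both printed on the minus strand of GRCm38.p6 from RefSeq windows, with CpG dinucleotides in capitals. At the distal site 92 bases inside the GENCODE model were left out.
Sall2 distal: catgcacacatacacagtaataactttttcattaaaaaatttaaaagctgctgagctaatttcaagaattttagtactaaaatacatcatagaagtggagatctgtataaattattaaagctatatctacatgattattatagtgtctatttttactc
Sall2 proximal: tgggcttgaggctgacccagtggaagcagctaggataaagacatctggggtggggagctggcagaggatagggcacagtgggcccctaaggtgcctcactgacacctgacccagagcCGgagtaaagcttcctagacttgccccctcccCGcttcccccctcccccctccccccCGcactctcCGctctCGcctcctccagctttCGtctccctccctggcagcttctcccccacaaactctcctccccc

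The distal stretch of 158 bases holds 0 CpG dinucleotides at a GC content of 25.3%, and the proximal stretch of 250 bases holds 6 at 64.4%. The median GC content of the 250 bases before a RefSeq start site was 52.4% over 32851 mouse promoter windows. NM_015772 stood at 0, 0 and 0.354 TPM on day 0 and at 0 and 0.474 TPM in Tsc2 KO cells. It was at 19.0 to 20.7 TPM on day 1, at 0.967 and 3.49 TPM in wild-type GFP+ cells, and at 3.64 and 7.87 TPM in Nprl2 KO cells. Its share of Sall2 was thus 31.1% to 35.0% on day 1, and 34.1% and 49.6% in the Nprl2 KO libraries. NM_001244916 was found in every library, from 2.71 TPM in 1 day 0 library to 59.9 TPM on day 3. The split has no test, and at the lowest Sall2 levels it rests on few reads.

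**Figure D3:**
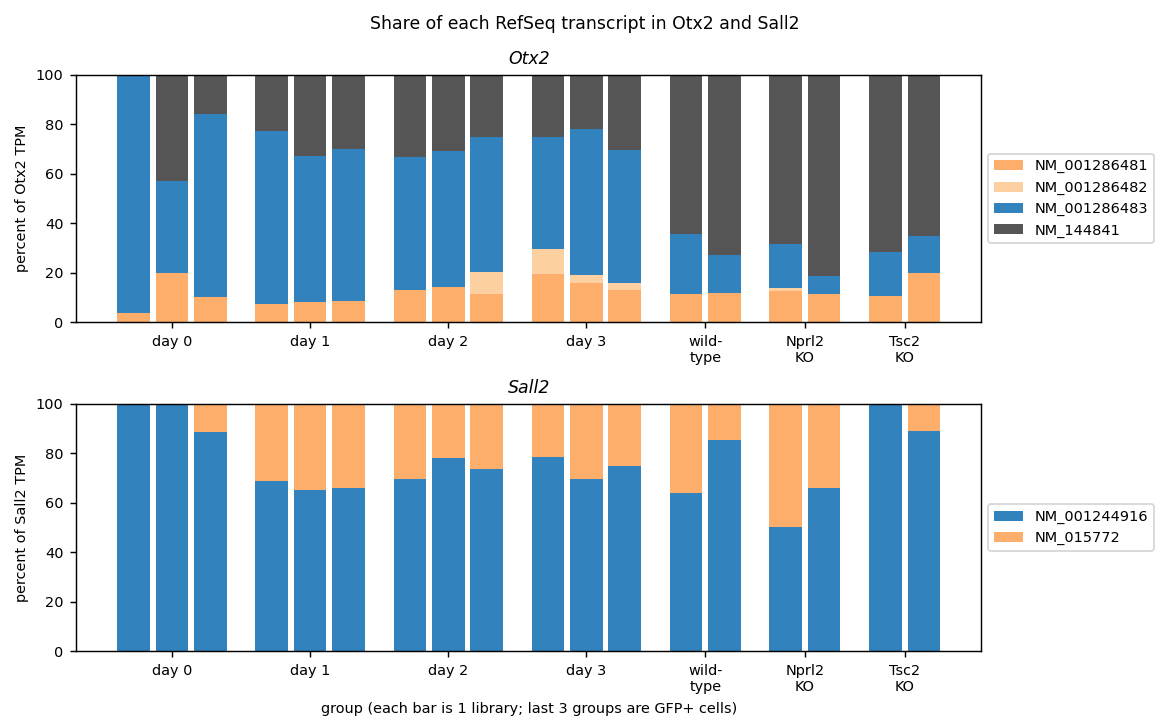
Percent of gene TPM (y axis, stacked to 100) held by each RefSeq transcript of Otx2 and Sall2, with 1 bar per library, grouped by day and by GFP+ genotype (x axis). NM_144841 takes 64.5% to 81.4% of Otx2 in GFP+ libraries, and the Sall2 transcript NM_015772 is absent from 2 of 3 day 0 libraries and from 1 of 2 Tsc2 KO libraries.

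As a whole gene Sall2 had 4.74, 5.58 and 3.06 TPM on day 0 and 61.0, 59.3 and 60.2 TPM on day 1. It kept to 70.4, 69.3 and 61.0 TPM on day 2 and 63.7, 76.7 and 79.9 TPM on day 3. Day 0 was below every later library. In TPM day 1 lay just under days 2 and 3, which overlapped, whereas in CPM the 3 later days all overlapped. The difference from day 0 was 3.84 on day 1 (14.3-fold, SE 0.15, edgeR adjusted p = 1.44e-10) and 3.96 on day 3 (15.6-fold, SE 0.15, edgeR adjusted p = 4.53e-11). None of the differences among days 1, 2 and 3 passed, the largest being 0.12 between days 1 and 3 (edgeR adjusted p = 0.364).

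The GFP+ cells had far less Sall2 than differentiating cells. It was at 9.64 and 6.66 TPM in wild-type cells, 15.9 and 10.7 TPM in the Nprl2 KO and 4.06 and 4.36 TPM in the Tsc2 KO libraries, without overlap between genotypes. Tsc2 KO cells were lower than wild-type by 2.02-fold (log2 fold change -1.02, SE 0.25, edgeR adjusted p = 0.0212). That call was lost without wild-type library 1 (adjusted p = 0.106), Tsc2 KO library 1 (0.0949) or Tsc2 KO library 2 (0.097). The Nprl2 KO difference of 0.75 (SE 0.23) had an edgeR adjusted p of 0.113 and passed without Nprl2 KO library 2 (0.0229) or with DESeq2 (0.029).

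Zic2 and Zic5 are neighbors that face away from each other on chromosome 14, with 9758 bases between their annotated 5′ ends. Zic2 (122475435 to 122479852) is on the plus strand and Zic5 (122456795 to 122465677) on the minus strand. Of all the members they were the closest pair in the time course, with a root mean square difference of 0.21 between their centred log2 CPM values over 12 libraries.

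Zic2 was at 51.4, 65.1 and 47.2 TPM on day 0 and at 84.6, 88.1 and 87.6 TPM on day 1. It went on to 148, 156 and 166 TPM on day 2 and 174, 177 and 179.7 TPM on day 3. No pair of days overlapped, so each day was above the day before it. Steps of 0.74 on the log2 scale to day 1 (SE 0.08, edgeR adjusted p = 4.01e-07) and 0.74 to day 2 (SE 0.08, edgeR adjusted p = 3.06e-07) were followed by 0.13 to day 3 (SE 0.08, edgeR adjusted p = 0.211).

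Zic5 had 17.8, 22.7 and 18.9 TPM on day 0 and 38.2, 40.4 and 39.4 TPM on day 1. On day 2 the values were 47.1, 55.3 and 64.5 TPM and on day 3 they were 54.9, 57.0 and 52.8 TPM. The first 3 days were separate and day 3 fell within the range of day 2. The rise to day 1 was 1.06 (2.08-fold, SE 0.10, edgeR adjusted p = 5.02e-08), that to day 2 was 0.38 (SE 0.09, edgeR adjusted p = 0.00169), and day 3 differed from day 2 by -0.06 (edgeR adjusted p = 0.667). Summed early neural markers were at 21.3 to 29 CPM on day 0, 21.4 to 24.5 CPM on day 1, 135 to 206 CPM on day 2 and 293 to 359 CPM on day 3. Most of the later sum was Nes, an intermediate filament gene of neural progenitors, with means of 11.8 CPM on day 1, 153 CPM on day 2 and 296 CPM on day 3. Sox1 had means of 6.41, 4.95 and 15.4 CPM on those days, and Pax6 had 3.03, 2.13 and 1.95 CPM. The sum therefore does not stand for the list as a whole. Of the 8 markers in that list, 4 on day 0 and 2 on day 1 (Neurog2 and Hes5) were at or under 3 counts, and the part of such cells in the Zic values was not tested.

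The Zic genes separated the Tsc2 KO from the other genotypes. Zic2 measured 43.2 and 34.4 TPM in wild-type cells, 50.6 and 37.1 TPM in the Nprl2 KO and 21.9 and 17.1 TPM in the Tsc2 KO GFP+ libraries. Zic5 measured 23.8 and 21.7 TPM in wild-type cells, 25.1 and 20.01 TPM in the Nprl2 KO and 10.2 and 8.84 TPM in the Tsc2 KO libraries. For both genes the wild-type and Nprl2 KO libraries overlapped and the Tsc2 KO libraries lay below them. Zic5 fell by 1.30 on the log2 scale in Tsc2 KO cells (2.46-fold lower, SE 0.15, edgeR adjusted p = 5.62e-05), a call that every leave-one-out fit kept. Zic2 fell by 1.03 (2.04-fold lower, SE 0.20, edgeR adjusted p = 0.00947), which did not pass without wild-type library 1 (0.0626). The Nprl2 KO differences were 0.21 for Zic2 and 0.02 for Zic5 (edgeR adjusted p = 0.6 and 0.969), and both changed sign when Nprl2 KO library 1 was left out, to -0.04 and -0.16.

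Foxd3, a gene of 1 exon on chromosome 4 (99656299 to 99658622, plus strand), had the highest mean TPM of the 7 on day 0. Its levels were 60.1, 59.9 and 75.4 TPM on day 0 and 87.6, 87.6 and 96.9 TPM on day 1. They dropped to 26.9, 46.4 and 27.0 TPM on day 2 and 13.97, 27.9 and 25.3 TPM on day 3. Day 1 was above day 0, both were above days 2 and 3, and the last pair overlapped. The fall from day 1 to day 2 was -1.55 on the log2 scale (2.92-fold, SE 0.27, edgeR adjusted p = 8.61e-04), and day 3 was below day 0 by 3.10-fold (log2 fold change -1.63, SE 0.28, edgeR adjusted p = 6.22e-04).

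In the sorted cells Foxd3 had 39.1 and 21.7 TPM in wild-type cells, 55.9 and 34.2 TPM in the Nprl2 KO and 45.8 and 37.6 TPM in the Tsc2 KO libraries. The libraries of all 3 genotypes overlapped. It had no call in any of the 3 genotype comparisons as fitted here, with log2 fold changes of 0.58 in Nprl2 KO (SE 0.41, edgeR adjusted p = 0.513) and 0.41 in Tsc2 KO (SE 0.41, edgeR adjusted p = 0.535) against wild-type. With no filter on low counts both of these passed, as higher (edgeR adjusted p = 1.53e-05 for Nprl2 KO and 0.00276 for Tsc2 KO). Foxd3 itself, at 227 to 750 counts, was in both fits, and its log2 fold changes stayed at 0.58 and 0.40. Why the adjusted p differed was not tested, and no conclusion is drawn from the unfiltered calls.

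Etv1 lies on chromosome 12 (38780082 to 38870484, plus strand), and 82.3% to 97.0% of its TPM, as group means, came from the longer of its 2 transcripts, NM_007960. It had 17.2, 14.7 and 24.3 TPM on day 0 and 24.5, 24.9 and 26.5 TPM on day 1. On day 2 it had 12.8, 16.2 and 14.6 TPM and on day 3 it had 13.2, 13.8 and 19.3 TPM. Day 1 was above the others, and days 0, 2 and 3 overlapped. The first rise of 0.52 on the log2 scale (SE 0.17, edgeR adjusted p = 0.0198) did not pass without day 0 library 1 (0.0672), day 0 library 2 (0.068) or day 1 library 3 (0.0525). The fall to day 2 was -0.91 (SE 0.17, edgeR adjusted p = 6.76e-04).

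Etv1 was called lower in Nprl2 KO and higher in Tsc2 KO cells. It measured 27.7 and 23.8 TPM in wild-type cells, 17.5 and 16.8 TPM in the Nprl2 KO and 33.9 and 33.3 TPM in the Tsc2 KO GFP+ libraries. No genotypes overlapped, and Tsc2 KO cells were highest. Etv1 was lower in Nprl2 KO than in wild-type cells (log2 fold change -0.55, SE 0.10, edgeR adjusted p = 0.00625), a call lost without wild-type library 1 (0.0513) or Nprl2 KO library 2 (0.0577). It was higher in Tsc2 KO than in wild-type cells by 0.35 (SE 0.09, edgeR adjusted p = 0.0144), and this was lost without wild-type library 2 (0.113), Tsc2 KO library 1 (0.0808) or Tsc2 KO library 2 (0.0579).

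**Figure D4:**
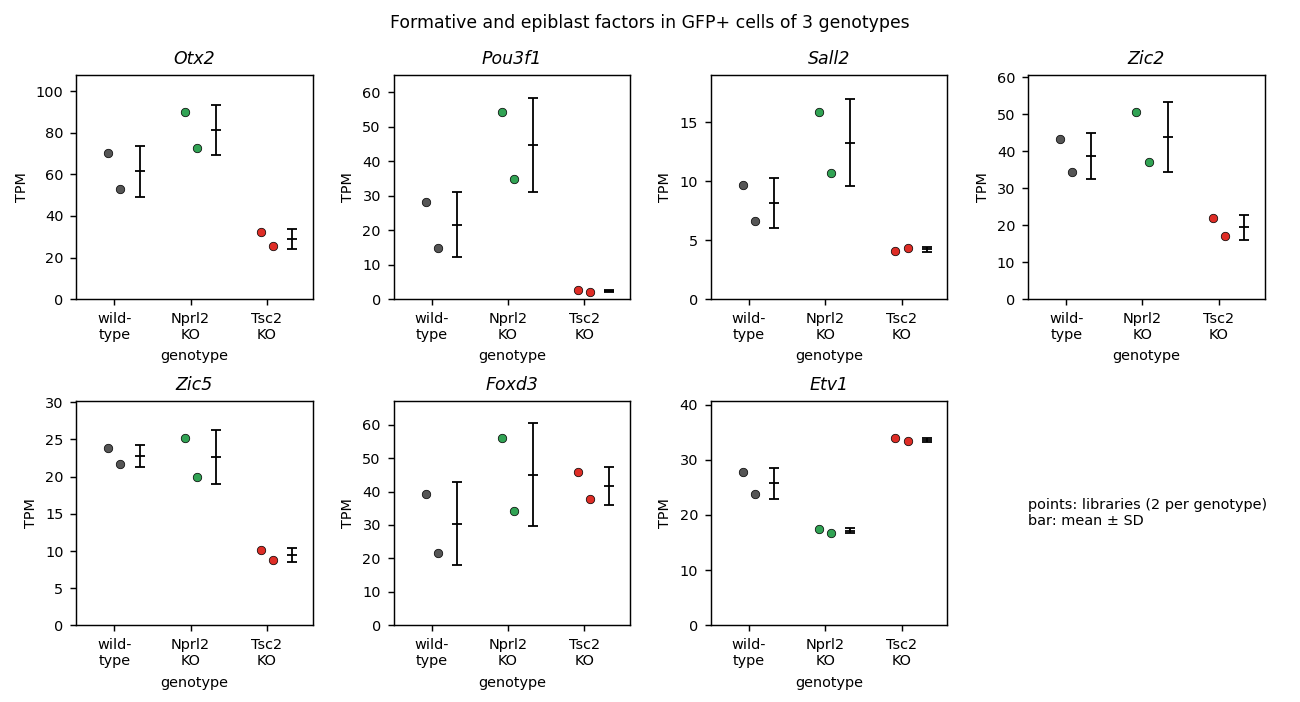
TPM of the 7 factors (y axis, each panel from 0) in GFP+ cells by genotype (x axis), with 1 point per library, 2 libraries per genotype, and bars for the mean ± SD. Tsc2 KO libraries are the lowest for Otx2, Pou3f1, Sall2, Zic2 and Zic5 and the highest for Etv1.

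Across the genotypes, Tsc2 KO against wild-type GFP+ cells had 5 of the 7 factors lower and 1, Etv1, higher (edgeR over 13725 genes), where 29.1% of all tested genes were called (14.9% higher, 14.2% lower). The median log2 fold change of the 7 was -1.03, against 0.00 over all genes. Without Tsc2 KO library 1 or without Tsc2 KO library 2 the count was 3, namely Otx2, Zic2 and Zic5. Of the Nprl2 KO differences only that of Etv1 passed, where 6.43% of all genes were called (2.78% higher, 3.66% lower), and without wild-type library 1 no member passed. With no filter on low counts 5 members passed in Nprl2 KO cells, Otx2, Pou3f1, Foxd3 and Sall2 as higher and Etv1 as lower. These members were in the filtered fit too, at similar log2 fold changes. Why the added calls passed was not tested, and no conclusion is drawn from them. The 2 KO comparisons share their wild-type libraries.

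The KO lines were also compared with each other. Otx2, Pou3f1, Zic2, Zic5 and Sall2 were lower and Etv1 was higher in Tsc2 KO than in Nprl2 KO cells, 6 of 7 where 34.2% of all genes were called (17.5% higher, 16.6% lower), and the count stayed at 6 whichever library was left out. The largest difference was that of Pou3f1, at 19.8-fold lower (log2 fold change -4.31, SE 0.50, edgeR adjusted p = 0.00579). Sall2 differed by 3.39-fold (log2 fold change -1.76, SE 0.24, edgeR adjusted p = 0.00109) and Otx2 by 2.97-fold (log2 fold change -1.57, SE 0.18, edgeR adjusted p = 4.91e-04). Etv1 was 1.86-fold higher (log2 fold change 0.89, SE 0.09, edgeR adjusted p = 2.3e-05).

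Zfp42 and the summed feeder and early neural markers were also set side by side between the genotypes. The reporter gene Zfp42 was higher in Tsc2 KO cells (log2 fold change 0.52, edgeR adjusted p = 7.79e-05) and lower in Nprl2 KO cells (log2 fold change -0.43, edgeR adjusted p = 0.00168) than in wild-type cells, although all were sorted for GFP. Feeder markers summed to 273 to 378 CPM in wild-type libraries, 284 to 297 CPM for Nprl2 KO and 80.6 to 322 CPM for Tsc2 KO. These feeder ranges overlapped, and the widest was that between the Tsc2 KO libraries. The early neural markers summed to 29.4 to 34.8, 31.3 to 35.8 and 10.9 to 13.9 CPM in the same order, with only the Tsc2 KO range apart. The similar neural sums of wild-type and Nprl2 KO cells held opposite differences. Mean Nes was 13.7 CPM in wild-type and 24.2 CPM in Nprl2 KO cells, and mean Pax6 was 14.2 and 7.75 CPM. Of the 8 feeder markers only Lum was at or under 3 counts in any of these groups. Their part in the differences was not tested.

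**Figure D5:**
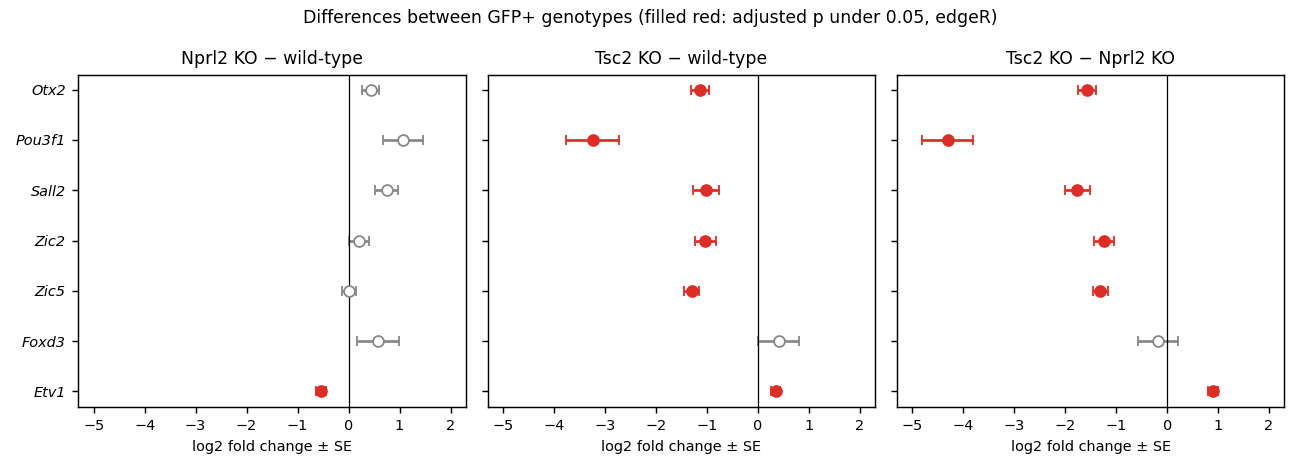
Log2 fold change ± SE (x axis) of each factor (y axis) for Nprl2 KO against wild-type, Tsc2 KO against wild-type and Tsc2 KO against Nprl2 KO, with filled red points where the edgeR adjusted p was under 0.05. Otx2, Pou3f1, Sall2, Zic2 and Zic5 lie left of 0 in both Tsc2 KO panels, Etv1 lies right of 0 there, and Etv1 alone is filled in the Nprl2 KO panel.

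Levels per length put the members in a different order at each stage. On day 0 the mean TPM fell from Foxd3 (65.1) and Zic2 (54.6) to Sall2 (4.46) and Pou3f1 (2.71), and the ranges of Foxd3 and Zic2 overlapped. On day 1 Pou3f1 was first (213 TPM) and Otx2 second (130.2 TPM), without overlap. Zic2 led on day 3 (177 TPM) ahead of Pou3f1 (146 TPM), and Etv1 (15.4 TPM) was the lowest with Foxd3 (22.4 TPM) next. In wild-type GFP+ cells Otx2 was the highest (61.5 TPM) and Sall2 the lowest (8.15 TPM).

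For each member the genes with the most similar time courses were found by the root mean square difference of centred log2 CPM over 12 libraries, among 12271 genes. The nearest to Otx2 were Efnb2 (0.23) and Enpp3 (0.23), and the nearest to Pou3f1 were Vrtn (0.36) and Tmem54 (0.43). For Sall2 they were Tmem229a (0.21) and Sox3 (0.26), and for Foxd3 they were Tasor (0.24) and Fsd1l (0.25). Zic2 was nearest to Homez (0.09) and Ube2e1 (0.11), Zic5 to Hip1 (0.10) and Zswim4 (0.13), and Etv1 to Ccnt1 (0.13) and Trim71 (0.14). No member was among the nearest 2 of another.

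Among close relatives of the members more were called lower than higher by day 3. Of 16 genes of the Otx, Pou3f, Foxd, Zic, Sall and Etv families, 12 could be tested in the time course. On day 3, 1 was higher and 7 were lower than on day 0, where 35% of all genes were called higher and 35.9% lower. The median log2 fold change of these relatives was -0.85. The higher one was Foxd4, which had 0 counts on day 0 and a mean of 1.54 CPM on day 3. Sall3 fell by 3.77 on the log2 scale (SE 0.31, edgeR adjusted p = 1.24e-06) where Sall2 rose. Sall1 and Sall4, the latter part of the core pluripotency network, fell by 0.83 and 0.88, and Etv4 and Etv5 fell by 1.10 and 1.06, each called in edgeR. Foxd1, also lower, was at about 1 CPM or less throughout (1.08 CPM on day 0 and 0.14 CPM on day 3).

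In GFP+ cells, 8 relatives were tested. Against wild-type, Tsc2 KO cells had higher Etv4, which like Etv1 follows FGF-ERK signaling (log2 fold change 0.76, SE 0.12, edgeR adjusted p = 6.64e-04), and lower Sall1 (-0.48) and Sall4 (-0.26). In Nprl2 KO cells Etv5 was the relative that passed, at 0.31 higher (SE 0.06, edgeR adjusted p = 0.0133). Etv4 in Nprl2 KO (-0.01, edgeR adjusted p = 0.986) and Etv5 in Tsc2 KO cells (0.05, edgeR adjusted p = 0.557) did not pass, and differences between Etv1, Etv4 and Etv5 were not tested.

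Other genes of the formative stage were read alongside. Of 18 such genes, 12 were higher and 4 lower on day 1 than on day 0, with Fgf5, a growth factor of the epiblast, rising most (log2 fold change 7.18, SE 0.20, edgeR adjusted p = 2.27e-15) and Lefty2 falling most (log2 fold change -1.21, SE 0.41, edgeR adjusted p = 0.0286). In Tsc2 KO against wild-type cells 12 of the 18 were lower and none was higher, and the largest fall was that of Fgf15 (log2 fold change -3.35, SE 0.42, edgeR adjusted p = 2.08e-04). In Nprl2 KO cells 5 were higher and none was lower, led by Wnt8a (log2 fold change 1.46, SE 0.23, edgeR adjusted p = 0.00351). The list medians were 2.36, -1.20 and 0.39, against all-gene medians of about 0. Over all tested genes 30.1% were called higher and 30.8% lower on day 1. Those shares were 14.9% and 14.2% in Tsc2 KO cells, and 2.78% and 3.66% in Nprl2 KO cells.

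The 12 genes of a naive pluripotency list went the other way. All 12 were lower on day 1, Tbx3, a T-box factor, falling most (log2 fold change -6.18, SE 0.13, edgeR adjusted p = 4.45e-17). In GFP+ cells 9 were higher in Tsc2 KO than in wild-type, led by Tfcp2l1 (log2 fold change 2.09, SE 0.18, edgeR adjusted p = 8.03e-04), and 7 were lower in Nprl2 KO, led by Tcl1 (log2 fold change -1.43, SE 0.16, edgeR adjusted p = 2.85e-04). Over all tested genes 30.8% were called lower on day 1, 14.9% higher in Tsc2 KO and 3.66% lower in Nprl2 KO cells. Several genes of the naive list are also markers shown by the study for the same samples, so their direction is not independent evidence. Set beside them, Foxd3 and Etv1 were the members that were not lower in Tsc2 KO cells.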

How the data were processed

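Transcript abundances of 18 libraries were deposited by the authors as kallisto 0.42.1 estimated counts and TPM per RefSeq transcript (mm10, per the submitters' processing notes), with a gene table of TPM whose values were used for the levels. GFP+ libraries were stranded mRNA libraries. Estimated counts were summed per gene, rounded and tested with edgeR 4.0.16 (R 4.3.3; TMM, expression filter, robust quasi-likelihood fit, Benjamini-Hochberg over all tested genes, threshold 0.05), with 1 fit for the 12 time-course libraries and 1 for the 6 GFP+ libraries. The scripts were tested on simulated data, in 1 run per design with 200 genes changed, fewer than were called in any comparison here. In the GFP+ design 52% of 1.5-fold and 72% of 2-fold changes were called. There 11.4% of the calls were false, more than the threshold of 0.05 allows. Such a share depends on how many genes change, so it need not carry over to the real comparisons. For day 1 against day 0 the values were 72%, 87% and 3.64%. GFP+ calls near the threshold, and missing calls there, are therefore to be read with caution. Similar genes used log2 CPM with a prior count of 2. Transcripts that matched no gene, 1.65% to 3.57% of a library's counts, were left out. Members, gene lists and marker lists were chosen with earlier results of these data known, and named genes were the members, called relatives, and the gene with the largest rise and fall of each list, except that some genes of the lists are not reported here. Alternatives were DESeq2 1.42.0, upper-quartile scaling, no filter or at least 10 counts in every library, a replicate block, pairs of groups alone, leave-one-out fits, and limma 3.58.1 on log2(TPM + 1). Sequences are RefSeq's, matched for 5 of 7 members by symbol.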

Additional observations from a re-analysis of the deposited data

How the results depend on the processing

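Of 1071 refitted log2 fold changes of the members, 1022 kept their direction and their side of the threshold, 14 lost a call, 23 gained one and 12 changed sign, and none of those 12 had been called. The number of members called stayed within 1.5 times of the value given in all comparisons but 3. The cause was not tested. For Nprl2 KO against wild-type the count of 1 became 2 with DESeq2, 5 with no filter on low counts and 0 to 1 when a library was left out, while the calls over all genes went from 883 to 683, 1667 and, without wild-type library 1, 483. For Tsc2 KO against wild-type the count of 6 ranged from 3 to 6 when a library was left out, and was 7, with Foxd3 added (adjusted p = 0.00276, edgeR), when low counts were not filtered. It was also 7 with the replicate block. For day 3 against day 2 the count of 1 ranged from 1 to 2 when a library was left out.

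With the replicate number as a block, 5 members were called in Nprl2 KO cells in place of 1 (Otx2, Pou3f1, Foxd3 and Sall2 higher, Etv1 lower), and 2072 genes were called. The labels give no meaning to the number. Same-numbered GFP+ libraries had correlations of 0.08 to 0.16 between their deviations from the group means, all positive. With 2 libraries per genotype the deviations mirror each other, so the 2 pairs of a comparison give 1 value. The comparisons also share libraries, so a pairing was neither shown nor excluded. In the time course the correlations ran from -0.113 to 0.133, and 2 of 18 pairs exceeded 0.1. For 4 of 12 libraries the closest library of every other day carried the same number, and a pairing was not tested there. The block also called Foxd3 as higher in Tsc2 KO (adjusted p = 0.00528) and Etv1 as lower on days 2 and 3 against day 0 (0.0255 and 0.0359), all in edgeR, and left the other calls of the members as they were.

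Sign changes occurred among uncalled differences. With limma on log2(TPM + 1) Zic5 in Nprl2 KO was at -0.018. Leaving out a library gave these ranges of log2 fold change: for Nprl2 KO against wild-type, -0.16 to 0.17 for Zic5 and -0.040 to 0.42 for Zic2, for Tsc2 KO against Nprl2 KO, -0.49 to 0.22 for Foxd3, for day 2 against day 1, -0.0055 to 0.15 for Pou3f1 and -0.016 to 0.10 for Sall2, and for day 3 against day 2, -0.071 to 0.14 for Otx2, -0.16 to 0.057 for Zic5 and -0.12 to 0.15 for Etv1. With a prior count of 0.5, Pcdh1 replaced Tmem54 as the second gene nearest to Pou3f1, and Sox3 and Lrp2 became the nearest to Sall2. Of 200 alternative transcript shares, chosen after seeing the data, 198 stayed within 1 SD of their group. With 2 or 3 libraries per group, leaving 1 out cannot move a mean further than that, so those shares were no check. The exceptions came from shares of estimated counts in place of TPM and were small shifts in Otx2.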

Other observations

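In the GFP+ cells, library 1 was above library 2 in CPM for 7 of 7 members of wild-type cells, 7 of 7 for Nprl2 KO and 6 of 7 for Tsc2 KO, with Sall2 as the exception. The ratio of library 1 to library 2 ran from 1.08 (Zic5) to 1.87 (Pou3f1) for wild-type, from 1.05 (Etv1) to 1.63 (Foxd3) for Nprl2 KO and from 0.946 (Sall2) to 1.31 (Zic2) for Tsc2 KO. The same count over all genes was not made, and whether the library number marks a shared origin was not tested.

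The TPM of Zic5 relative to Zic2 was not constant. Their ratio was 0.365 ± 0.031 (SD, n = 3) on day 0, 0.453 ± 0.005 on day 1, 0.354 ± 0.035 on day 2 and 0.310 ± 0.015 on day 3. In GFP+ cells it was 0.591 ± 0.056 (SD, n = 2) for wild-type, 0.518 ± 0.030 for Nprl2 KO and 0.491 ± 0.037 for Tsc2 KO. No test was run on this ratio, and levels of the 2 experiments may differ by library preparation.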
